A study of Mus musculus with 6 samples.

Results

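The levels of 9 genes of immature T cells were followed in splenic CD4+ T cells from mice that carried 0, 1 or 2 copies of the *Ikzf3* N159S allele. They were *Dntt*, *Rag1*, *Rag2*, *Cd24a*, *Sox4*, *Tox*, *Themis*, *Cd8a* and *Cd8b1*, chosen by name as genes of developing thymocytes and recent thymic emigrants, and all 9 were among the 25239 genes listed for each library. The cells were sorted from spleen as TCRβ+CD4+CD44-CD127+, a gate that names CD4 and not CD8, and their poly(A) RNA was sequenced. The 6 libraries came from C57BL/6 mice, with 2 libraries for each of the genotypes *Ikzf3* +/+, *Ikzf3* +/N159S and *Ikzf3* N159S/N159S. *Ikzf3* encodes Aiolos, a zinc finger protein of the Ikaros family that acts in lymphocytes, and the N159S strain was made by CRISPR/Cas9 editing of the mouse gene. The change is carried in the germline, so it was present in the thymus as well as in the spleen and in other cell types. Age and sex were not given for these mice. With 2 libraries against 2, the smallest p of an exact two-sided permutation test is 0.333, and the tests below therefore rest on edgeR's quasi-likelihood model, which shares the estimate of the spread across all genes.

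T cells are made in the thymus, where RAG1 and RAG2 cut the T cell receptor genes, and terminal deoxynucleotidyl transferase, the product of *Dntt*, adds untemplated bases to the cut ends. Thymocytes then display both CD4 and CD8, are selected by the strength of the signal from their receptor, and keep a single coreceptor. The receptor signal during selection passes in part through THEMIS, CD4 lineage cells need TOX, and the surface protein CD24 and the transcription factor SOX4 are high in immature cells and decline as cells mature and leave the thymus. Ikaros family proteins are known for repressing and activating genes along this path, and the comparison asks at what level these genes remain in T cells of the spleen for each Aiolos genotype.

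Reads counted on genes numbered 11696461 to 17317260 in a library, and 14803 to 18147 genes were detected. Levels are given as reads per 1000000 reads on genes (CPM), scaled by edgeR's TMM factors. *Ikzf3* itself was at 157 and 154 CPM in +/+, 168 and 152 in +/N159S and 197 and 203 in N159S/N159S libraries, a level that counts both alleles and does not check the base change. The 6 T cell identity markers (*Cd3e*, *Cd3d*, *Cd3g*, *Cd247*, *Cd4* and *Lat*) summed to 2797 to 3265 CPM, and 0 of the 6 changed in any comparison by edgeR, also at an unadjusted p under 0.05 and by DESeq2. *Xist*, the RNA of the inactive X chromosome, was at 731 and 824 CPM in the +/N159S libraries and at 0.773 to 1.98 CPM in the other 4, so that what *Xist* marks and the +/N159S genotype cannot be told apart. In whole-population RNA, fewer cells that express a gene and less RNA of that gene per cell also cannot be told apart.

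Of the 9 genes, 7 passed the filter on low counts, as did 12117 of the 25239 genes. *Dntt*, *Cd24a*, *Sox4* and *Cd8b1* were lower in N159S/N159S than in +/+ cells at a false discovery rate (FDR) under 0.05, while *Tox*, *Themis* and *Cd8a* did not pass the test and *Rag1* and *Rag2* could not be tested. These are 4 of 7 genes tested, beside 2.1% of all tested genes that were lower in that comparison (5.21% in either direction, 3.1% higher). Between +/N159S and +/+ cells only *Dntt* passed, which was lower, beside 0.586% of all tested genes lower (1.75% in either direction, 1.16% higher). Between N159S/N159S and +/N159S cells *Cd24a*, *Cd8a* and *Cd8b1* passed, all lower in N159S/N159S cells, beside 0.933% of all tested genes lower (1.49% in either direction, 0.553% higher). The comparisons share libraries, so their counts are not independent of each other. In the N159S/N159S libraries all 7 tested genes lay below both +/+ libraries, beside 23.9% of all tested genes. The +/N159S libraries lay below both +/+ libraries for 4 of the 7 genes, beside 22.1%, and the N159S/N159S libraries below both +/N159S libraries for 5 of the 7, beside 21.6%. The median log2 fold change of all tested genes was near 0 in each comparison (0.00018, 0.011 and -0.0077).

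**Figure D1:**
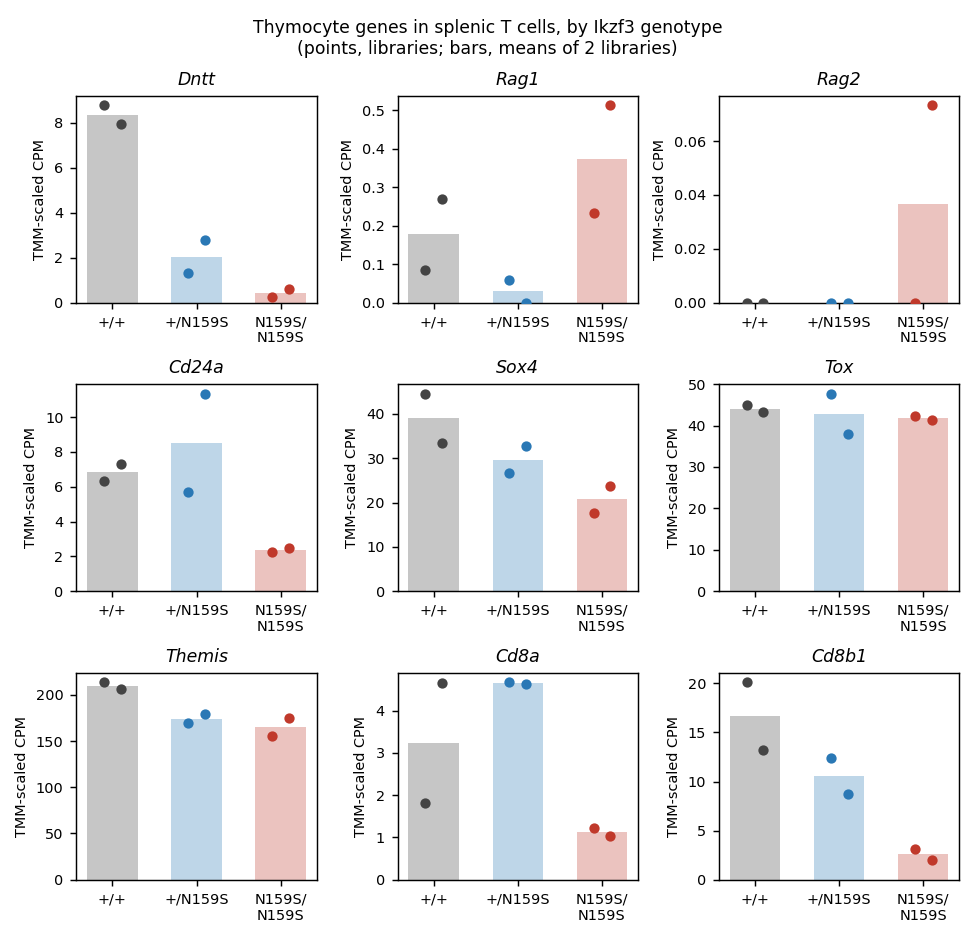
TMM-scaled CPM of the 9 thymocyte genes (vertical axes, linear, each with its own scale) in the 2 libraries of each *Ikzf3* genotype, where points are libraries and bars are means of 2 libraries. The N159S/N159S points lie below both +/+ points in the panels of *Dntt*, *Cd24a*, *Sox4*, *Tox*, *Themis*, *Cd8a* and *Cd8b1*, by very different amounts, and *Rag1* and *Rag2* stay below 1 CPM.

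Promoter sequences are shown for the 3 genes with an entry that were lower in at least 1 comparison. An Ikaros family protein acts by binding DNA, and TGGGAA was searched as a core of its sites. The printed sequences are RefSeq sequences of build GRCm38.p6, from 250 bases before to 50 bases after the annotated start, written along the gene's strand. Capitals mark TGGGA, or TCCCA where the match is on the opposite strand. Stretches with GGGAA but without the T before it were left unmarked. An entry was held for 6 of the 9 genes, and *Cd24a*, *Tox* and *Cd8b1* had none.
Dntt, chr19:41029025-41029324, plus strand: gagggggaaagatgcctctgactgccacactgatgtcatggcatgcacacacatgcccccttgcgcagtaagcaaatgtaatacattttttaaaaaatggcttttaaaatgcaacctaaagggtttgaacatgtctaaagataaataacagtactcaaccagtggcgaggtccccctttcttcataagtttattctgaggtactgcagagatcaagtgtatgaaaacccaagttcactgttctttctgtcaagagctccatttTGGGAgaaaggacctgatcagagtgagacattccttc
Sox4, chr13:28953650-28953949, minus strand: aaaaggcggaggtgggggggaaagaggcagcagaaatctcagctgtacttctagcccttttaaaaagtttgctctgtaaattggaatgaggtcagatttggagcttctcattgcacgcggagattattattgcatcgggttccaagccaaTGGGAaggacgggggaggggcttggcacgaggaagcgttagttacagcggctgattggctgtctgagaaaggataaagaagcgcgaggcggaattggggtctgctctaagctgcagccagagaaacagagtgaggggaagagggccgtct
Cd8a, chr6:71373177-71373476, plus strand: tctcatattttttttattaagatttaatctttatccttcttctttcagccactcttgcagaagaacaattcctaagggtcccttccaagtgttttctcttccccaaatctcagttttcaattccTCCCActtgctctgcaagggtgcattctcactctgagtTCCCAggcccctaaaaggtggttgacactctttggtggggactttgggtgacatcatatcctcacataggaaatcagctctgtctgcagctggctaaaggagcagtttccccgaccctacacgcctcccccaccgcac

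The longer form TGGGAA (either strand) was in 25.6% of the 32851 promoters of the table. It occurred once in the windows of *Sox4* (position -100, counted with the start as +1), *Cd8a* (-89, on the opposite strand) and *Rag1* (-52), and was not found in those of *Dntt*, *Rag2* and *Themis*. The shorter TGGGA, which was added after the sequences had been seen and which overlaps the longer form, was in 61.6% of all promoters. *Dntt* held it at position +14, just inside the transcribed part, and the *Cd8a* window held it at 2 places. These are matches of letters in a window and say nothing of binding.

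*Dntt* (gene ID 21673, chr19:41029275-41059525 in mm10, 12 exons) had the largest change of the 9 genes. It was at 8.76 and 7.94 CPM in +/+, at 1.30 and 2.77 CPM in +/N159S, and at 0.233 and 0.586 CPM in N159S/N159S libraries. The 3 genotypes did not overlap, and the level was lower with each further copy of the mutant allele. These CPM stand for 102 and 118 reads, 22 and 43 reads, and 4 and 8 reads, so that the pooled N159S/N159S level of 0.389 CPM has an exact 95% Poisson interval of 0.201 to 0.680 CPM, which covers counting error only. The level in N159S/N159S cells was 20.8-fold lower than in +/+ cells (log2 fold change -4.38 ± 0.48, standard error; edgeR quasi-likelihood test, Benjamini-Hochberg FDR 0.000399). In +/N159S cells it was 4.12-fold lower than in +/+ cells (log2 fold change -2.04 ± 0.38, FDR 0.0246, edgeR). From +/N159S to N159S/N159S it differed by a further -2.34 ± 0.54 on the log2 scale, which did not pass (FDR 0.0623, edgeR). On the log2 scale the +/N159S level lay close to the midpoint of the other genotypes, at a distance of 0.15 ± 0.38 (FDR 0.923, edgeR).

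Among all 12117 tested genes *Dntt* ranked 7th by the size of the decrease from +/+ to N159S/N159S and 12th from +/+ to +/N159S. Its decrease in N159S/N159S cells passed the test under every alternative tried, 13 in all, with log2 fold changes from -5.10 to -3.81. The +/N159S decrease, in contrast, was lost without +/+ library 1 (FDR 0.116), without +/+ library 2 (FDR 0.112) and without +/N159S library 1 (log2 fold change -1.59, FDR 0.0830), all by edgeR. The difference between N159S/N159S and +/N159S depended on the test as well as on the library. It passed without +/N159S library 1 (log2 fold change -2.79, FDR 0.0203, edgeR), and at log2 fold changes of -2.34 to -2.30 it passed with DESeq2 (FDR 0.00664), edgeR's likelihood ratio test (FDR 0.000493), no filter on low counts (FDR 1.11e-05, edgeR) and a block that set apart, within each genotype, the library with more genes detected (FDR 0.00355, edgeR). It did not pass under the other 8 alternatives.

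*Rag1* and *Rag2* encode the recombinase itself and lie 5724 bases apart on chromosome 2. *Rag1* had 1 and 4 reads in +/+, 1 and 0 in +/N159S, and 4 and 7 in N159S/N159S libraries, that is 0 to 0.513 CPM. *Rag2* had a single read, in N159S/N159S library 2, and 0 reads in the other 5 libraries, which allows up to 0.175 to 0.258 CPM in each (3 reads of a library). *Rag* transcripts were thus at or near the limit of detection in all genotypes, and the depth was too low to resolve a difference between them. The *Rag1* mean was highest in N159S/N159S cells (0.373 CPM, against 0.177 CPM in +/+ and 0.0295 CPM in +/N159S cells). When every gene with a read was tested (21296 genes), *Rag1* differed by 1.0 ± 1.77 on the log2 scale between N159S/N159S and +/+ cells (FDR 0.911, edgeR). Between N159S/N159S and +/N159S cells it differed by 3.29 ± 2.06 (FDR 0.860, edgeR). Between +/N159S and +/+ cells the difference was -2.29 ± 2.12 (FDR 0.897, edgeR). Per kilobase of exon, *Dntt* in +/+ cells was at 3.92 ± 0.273 reads per kilobase per 1000000 reads (RPKM; SD, n = 2), against 0.0269 ± 0.0196 RPKM for *Rag1*.

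The genes of the proteins that complete V(D)J joining were also read. They encode the Ku proteins, DNA-PKcs, Artemis, ligase IV and its partners, the polymerases related to TdT, the HMGB proteins and the kinase ATM, and all 12 passed the filter and were tested. In N159S/N159S against +/+ cells 0 of the 12 passed edgeR's quasi-likelihood test (3 at an unadjusted p under 0.05, 0 by DESeq2), beside 5.21% of all tested genes. The median log2 fold change of the 12 was -0.08. The count was 0 of 12 also in +/N159S against +/+ cells (1 unadjusted, 0 by DESeq2) and in N159S/N159S against +/N159S cells (0 unadjusted, 0 by DESeq2). *Polm* and *Poll*, which encode the polymerases nearest to TdT, had log2 fold changes of -0.13 ± 0.13 and 0.34 ± 0.15 in N159S/N159S against +/+ cells (edgeR FDR 0.667 and 0.256).

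*Cd24a* (chr10:43579169-43584265, 2 exons) encodes the heat-stable antigen, which marks immature thymocytes and recent emigrants and is also high on B cells. It was at 6.36 and 7.33 CPM in +/+, 5.72 and 11.3 CPM in +/N159S and 2.27 and 2.49 CPM in N159S/N159S libraries. The N159S/N159S libraries were the lowest of the 6, while the +/N159S libraries lay on both sides of the +/+ libraries and far from each other. The level was 2.89-fold lower in N159S/N159S than in +/+ cells (log2 fold change -1.53 ± 0.34, FDR 0.0241, edgeR) and 3.57-fold lower than in +/N159S cells (-1.84 ± 0.33, FDR 0.0194, edgeR). The +/N159S cells differed from +/+ cells by 0.31 ± 0.30 on the log2 scale (FDR 0.655, edgeR). The decrease against +/+ cells did not pass without +/+ library 1 (FDR 0.0570), +/+ library 2 (0.127), N159S/N159S library 1 (0.114) or N159S/N159S library 2 (0.0798), each by edgeR, with log2 fold changes from -1.62 to -1.42. The decrease against +/N159S cells did not pass without +/N159S library 2 (log2 fold change -1.27, FDR 0.0951, edgeR), N159S/N159S library 1 (FDR 0.0847) or N159S/N159S library 2 (FDR 0.0996).

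Since *Cd24a* is also a B cell gene, markers of B cells were read beside it. The 8 B cell markers (*Ms4a1*, *Cd79a*, *Cd79b*, *Cd74*, *Cd22*, *Blk*, *Ebf1* and *Pax5*) summed to 137 and 197 CPM in +/+, 335 and 551 CPM in +/N159S, and 139 and 95.7 CPM in N159S/N159S libraries. All 8 were lower in N159S/N159S than in +/N159S cells, *Ms4a1* and *Cd79a* were lower in N159S/N159S than in +/+ cells, and *Cd79b*, *Cd74* and *Cd22* were higher in +/N159S than in +/+ cells (edgeR, FDR under 0.05). The shares of all tested genes with the same direction in these comparisons were 0.933%, 2.1% and 1.16%. The most abundant marker, *Cd74*, was at 67.7 and 98.6 CPM in +/+, 190 and 325 CPM in +/N159S, and 80.1 and 56.2 CPM in N159S/N159S libraries. By library the B cell sum and *Cd24a* were only partly in the same order. Both were highest in +/N159S library 2, but +/N159S library 1 had a higher B cell sum and a lower *Cd24a* level than either +/+ library. N159S/N159S library 1 and +/+ library 1 had similar B cell sums (139 and 137 CPM) at *Cd24a* levels of 2.27 and 6.36 CPM. Their single markers differed in both directions. *Ms4a1*, *Cd79a*, *Cd22*, *Ebf1* and *Pax5* were lower in N159S/N159S library 1 than in +/+ library 1, and *Cd74*, *Cd79b* and *Blk* were higher. Similar sums therefore do not show equal B cell RNA in these libraries. The part of B cell RNA in the *Cd24a* difference was not tested.

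*Sox4* and *Tox* encode HMG-box proteins, SOX4 being a factor of immature lymphocytes and TOX a factor needed for CD4 lineage development. *Sox4* (chr13:28948919-28953699, a single exon) was at 44.5 and 33.5 CPM in +/+, 26.6 and 32.7 CPM in +/N159S and 17.6 and 23.8 CPM in N159S/N159S libraries. The means stepped down with each mutant allele and the 3 genotypes did not overlap, although +/+ library 2 and +/N159S library 2 were within 1 CPM of each other. *Sox4* was 1.89-fold lower in N159S/N159S than in +/+ cells (log2 fold change -0.92 ± 0.18, FDR 0.0147, edgeR). In +/N159S cells the log2 fold change was -0.39 ± 0.18 (FDR 0.307, edgeR). The N159S/N159S decrease did not pass without +/+ library 1 (log2 fold change -0.70, FDR 0.122, edgeR) or without N159S/N159S library 1 (-0.71, FDR 0.103). With the block for genes detected *Sox4* also passed in +/N159S against +/+ cells (FDR 0.0231, edgeR) and in N159S/N159S against +/N159S cells (FDR 0.00485, edgeR), and the latter difference passed without the filter on low counts (FDR 0.0274, edgeR).

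*Tox* (chr4:6686353-6991557, 9 exons) was at 45.0 and 43.2 CPM in +/+, 47.6 and 38.1 CPM in +/N159S and 42.4 and 41.3 CPM in N159S/N159S libraries. The levels were nearly equal across genotypes, and the spread between the +/N159S libraries was wider than any gap between genotype means. The log2 fold change was -0.07 ± 0.13 in N159S/N159S and -0.04 ± 0.13 in +/N159S against +/+ cells (FDR 0.825 and 0.910, edgeR). Of 5 related genes (*Sox11*, *Sox12*, *Tox2*, *Tox3* and *Tox4*) 3 were tested, and 0 passed in N159S/N159S against +/+, +/N159S against +/+ or N159S/N159S against +/N159S cells (edgeR; 1, 2 and 0 at an unadjusted p under 0.05, 0 by DESeq2). The most abundant of them, *Tox4*, had a log2 fold change of -0.29 ± 0.10 in N159S/N159S cells (FDR 0.144, edgeR).

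*Themis* (chr10:28668360-28883820, 6 exons) encodes a T cell adaptor that binds GRB2 and tunes the receptor signal during selection. It was at 214 and 206 CPM in +/+, 169 and 180 CPM in +/N159S and 156 and 175 CPM in N159S/N159S libraries. Both mutant genotypes lay below both +/+ libraries and overlapped each other. The log2 fold change was -0.34 ± 0.10 in N159S/N159S cells, or 78.8% of the +/+ level, and missed the threshold (FDR 0.0739, edgeR). It was -0.27 ± 0.10 in +/N159S cells (FDR 0.210, edgeR). The N159S/N159S difference passed with DESeq2 (FDR 0.0443), with edgeR's likelihood ratio test (FDR 0.0332) and with the block for genes detected (FDR 0.00173, edgeR), at nearly the same fold change, and with this block the +/N159S difference passed too (FDR 0.0169, edgeR). Among 11 partners of THEMIS in receptor signalling, *Plcg1*, which encodes phospholipase C-γ1, was lower in N159S/N159S than in +/+ cells (log2 fold change -0.57 ± 0.13, FDR 0.0271, edgeR). *Tespa1*, which encodes a thymocyte adaptor, was lower in +/N159S than in +/+ cells (-0.57 ± 0.11, FDR 0.0293, edgeR), and in each of these comparisons the other 10 did not pass. Of all tested genes 2.1% were lower in the former comparison and 0.586% in the latter.

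*Cd8b1* and *Cd8a* encode the β and α chains of the CD8 coreceptor and lie 35935 bases apart on chromosome 6 (chr6:71322788-71337492 and chr6:71373427-71379171). *Cd8b1* was at 20.1 and 13.2 CPM in +/+, 12.4 and 8.76 CPM in +/N159S and 3.14 and 2.05 CPM in N159S/N159S libraries. The genotypes did not overlap, and the mean N159S/N159S level was 15.6% of the +/+ mean while that of +/N159S was 63.6%. *Cd8b1* was 6.26-fold lower in N159S/N159S than in +/+ cells (log2 fold change -2.65 ± 0.29, FDR 0.000379, edgeR) and 4.01-fold lower than in +/N159S cells (-2.00 ± 0.29, FDR 0.00707, edgeR). The difference of +/N159S from +/+ cells was -0.64 ± 0.25 (FDR 0.231, edgeR) and passed only without the filter on low counts (FDR 0.0288, edgeR). The decrease against +/+ cells passed under all 13 alternatives, with log2 fold changes from -3.01 to -2.32, and ranked 25th of 12117. The decrease against +/N159S cells did not pass without N159S/N159S library 2 (log2 fold change -1.73, FDR 0.0583, edgeR).

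*Cd8a* followed another pattern. It was at 1.80 and 4.64 CPM in +/+, 4.66 and 4.64 CPM in +/N159S and 1.22 and 1.03 CPM in N159S/N159S libraries, that is 21 and 69, 79 and 72, and 21 and 14 reads. The N159S/N159S libraries were lowest, but +/+ library 1 was closer to them than to +/+ library 2. The decrease against +/N159S cells was 4.09-fold (log2 fold change -2.03 ± 0.44, FDR 0.0467, edgeR). Against +/+ cells the log2 fold change was -1.53 ± 0.45 and did not pass (FDR 0.0856, edgeR). Without +/+ library 1 it was -2.03 and passed (FDR 0.0188, edgeR), and without +/+ library 2 it was -0.67. At log2 fold changes of -1.53 to -1.50 the difference from +/+ cells also passed with edgeR's likelihood ratio test (FDR 0.0147), no filter on low counts (FDR 0.000991, edgeR) and the block for genes detected (FDR 0.0145, edgeR), and it did not pass with DESeq2 (FDR 0.0593). The decrease against +/N159S cells did not pass without +/N159S library 1 or 2 (FDR 0.123 and 0.102, edgeR) or without N159S/N159S library 1 or 2 (FDR 0.136 and 0.223, edgeR), nor with the replicate number as a block (FDR 0.0613, edgeR). The difference of +/N159S from +/+ cells was 0.50 ± 0.39 (FDR 0.576, edgeR).

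The 2 chains were not in a constant ratio. Per kilobase of exon, *Cd8b1* exceeded *Cd8a* 23.5-fold in +/+ library 1, and 6.00-fold in +/+ library 2. The ratio was 5.61 and 3.99 in +/N159S and 5.43 and 4.22 in N159S/N159S libraries, so that +/+ library 1 stood apart from the other 5. Against *Cd4*, the coreceptor used for the sort, the *Cd8b1* mean was 3.70% in +/+, 2.79% in +/N159S and 0.639% in N159S/N159S cells on the RPKM scale. The corresponding *Cd8a* values were 0.339%, 0.581% and 0.131%.

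Markers of CD8 and NK cytotoxic cells were read beside the CD8 genes. The 15 markers summed to 100 and 114 CPM in +/+, 109 and 108 CPM in +/N159S and 102 and 102 CPM in N159S/N159S libraries. *Ctsw*, the most abundant, made 44.3 to 53.8 CPM of this, and the other 14 summed to 55.9 and 69.0, 59.7 and 58.5, and 50.9 and 48.6 CPM. Of the 10 that were tested, 0 passed in N159S/N159S against +/+ cells by edgeR's quasi-likelihood test (4 at an unadjusted p under 0.05), beside 5.21% of all tested genes. The median log2 fold change of the 10 was -0.34. DESeq2 called 2 of them, *Klrd1* (log2 fold change -0.85, FDR 0.0244) and *Gzma* (2.68, FDR 0.0220), in opposite directions. In +/N159S against +/+ cells 0 of the 10 passed (2 unadjusted, 0 by DESeq2), and *Ccl5* was lower in N159S/N159S than in +/N159S cells (-2.46 ± 0.48, FDR 0.0281, edgeR). *Gzmb* was at 0.0582 to 0.471 CPM over the 6 libraries. *Nkg7* was at 0.429 and 1.14 CPM in +/+, 1.48 and 3.16 CPM in +/N159S and 0.524 and 0.0733 CPM in N159S/N159S libraries. *Ccl5* was at 1.37 and 1.35, 2.83 and 2.64, and 0.349 and 0.659 CPM in the same order. Of the 10 tested markers, 7 had negative and 3 had positive log2 fold changes in N159S/N159S against +/+ cells. The part of CD8 T cells in the *Cd8b1* and *Cd8a* values was not tested. The mean B cell sum given above, like the mean of *Cd8a*, was highest in +/N159S and lowest in N159S/N159S cells. For single libraries, +/+ library 2 and +/N159S library 2 were both at 4.64 CPM of *Cd8a*, with B cell sums of 197 and 551 CPM. The part of B cell RNA in the *Cd8a* values was not tested.

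**Figure D2:**
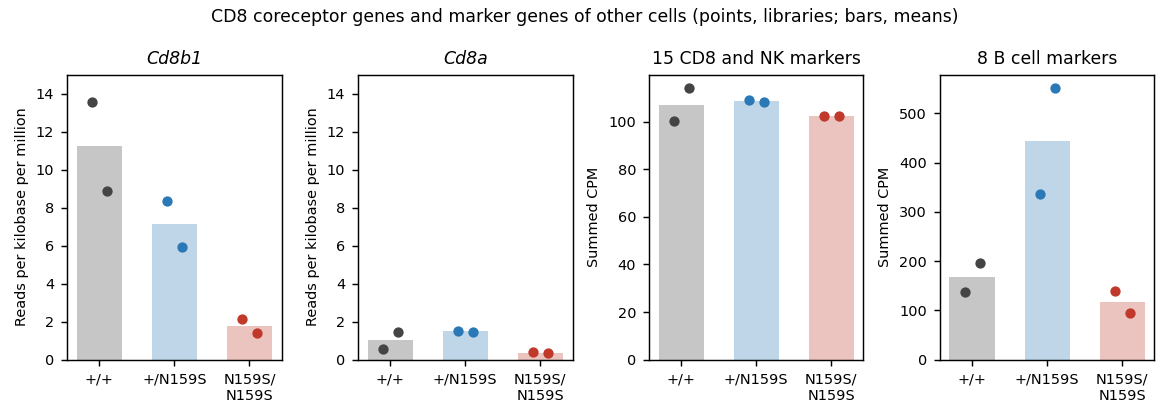
*Cd8b1* and *Cd8a* in RPKM on a common vertical scale, and the summed CPM of 15 CD8 and NK cell markers and of 8 B cell markers, where points are libraries and bars are means of 2 libraries per genotype. *Cd8b1* drops from 13.6 and 8.89 in +/+ to 2.12 and 1.38 in N159S/N159S libraries. The CD8 and NK sum lies between 100 and 114 CPM, of which *Ctsw* alone makes 44.3 to 53.8 CPM. Without *Ctsw* it is 55.9 and 69.0 in +/+ and 50.9 and 48.6 CPM in N159S/N159S libraries. The B cell sum is highest in the +/N159S libraries.

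The genes that set the choice between CD4 and CD8 were read next. Of 11 regulators tested, *Runx1* (log2 fold change -0.46 ± 0.10, FDR 0.0271, edgeR) and *Lef1* (-0.60 ± 0.15, FDR 0.0412) were lower in N159S/N159S than in +/+ cells, which is 2 of 11 beside the 2.1% of all tested genes that were lower. In that comparison 4 would pass at an unadjusted p under 0.05, and DESeq2 called 2. By edgeR 0 passed in the other comparisons between genotypes (0 at an unadjusted p under 0.05 in +/N159S against +/+ and 3 in N159S/N159S against +/N159S cells, 0 by DESeq2 in both). RUNX1 represses *Cd4* in immature thymocytes, and LEF1 acts with TCF1 in thymocyte development. *Runx3*, the factor of the CD8 lineage, had a log2 fold change of 0.34 ± 0.22 (FDR 0.475, edgeR). *Zbtb7b*, which encodes the CD4 lineage factor ThPOK, had a log2 fold change of 0.11 ± 0.12 (FDR 0.693, edgeR), both in N159S/N159S against +/+ cells. The median of the 11 was -0.04.

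**Figure D3:**
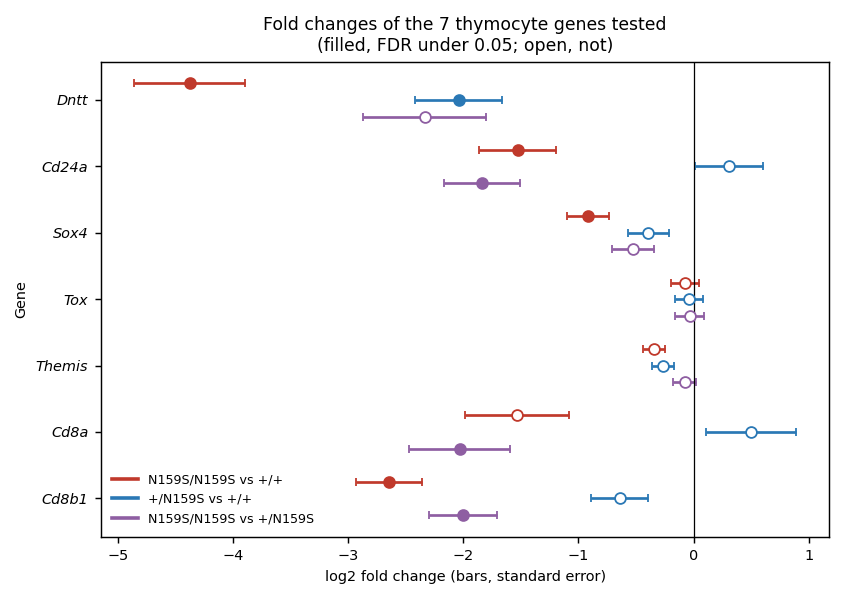
Log2 fold changes (horizontal axis, error bars are standard errors of the edgeR fit) of the 7 tested thymocyte genes in the 3 comparisons between genotypes, with filled points for FDR under 0.05. *Dntt* and *Cd8b1* have the largest decreases in N159S/N159S against +/+ cells at -4.38 and -2.65, and *Tox* lies near 0 in all 3 comparisons.

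The position of the +/N159S genotype differed between members. Its mean CPM lay between the other means for *Dntt*, *Sox4*, *Tox*, *Themis* and *Cd8b1*, and above both for *Cd24a* and *Cd8a*. Of all tested genes 38.7% had a mean in between, and of the 255 genes lower in N159S/N159S than in +/+ cells it was 90.6%. In percent of the +/+ mean, the +/N159S level was 24.4 for *Dntt*, 63.6 for *Cd8b1*, 76.0 for *Sox4*, 83.1 for *Themis*, 97.2 for *Tox*, 125 for *Cd24a* and 144 for *Cd8a*. The departure from the midpoint on the log2 scale was 1.07 ± 0.26 for *Cd24a* (FDR 0.102), 1.27 ± 0.34 for *Cd8a* (FDR 0.148) and 0.68 ± 0.23 for *Cd8b1* (FDR 0.281), and 0 of the 7 genes passed by edgeR's quasi-likelihood test, beside 0.933% of all tested genes. At an unadjusted p under 0.05 these 3 genes would pass. DESeq2 called *Cd24a*, and edgeR's likelihood ratio test called *Cd24a* and *Cd8a*.

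Levels can be set side by side between genes per kilobase of exon. In +/+ cells the order was *Themis* (41.3 ± 0.988 RPKM, SD, n = 2), *Cd8b1* (11.2 ± 3.29), *Tox* (11.1 ± 0.323), *Sox4* (8.13 ± 1.62), *Dntt* (3.92 ± 0.273), *Cd24a* (3.77 ± 0.381) and *Cd8a* (1.03 ± 0.641), and *Cd4* was at 303 RPKM. *Cd8b1* overlapped *Tox* and *Sox4*, and *Dntt* overlapped *Cd24a*, so these neighbours did not differ beyond their spread. In N159S/N159S cells the order was *Themis* (32.6 ± 2.65), *Tox* (10.6 ± 0.197), *Sox4* (4.32 ± 0.920), *Cd8b1* (1.75 ± 0.520), *Cd24a* (1.31 ± 0.0862), *Cd8a* (0.359 ± 0.0443) and *Dntt* (0.192 ± 0.117). Neighbours in this order did not overlap, *Cd8b1* and *Cd24a* by the narrowest gap (1.38 against 1.37 RPKM in the nearest libraries). *Tox* and *Sox4*, which *Cd8b1* overlapped in +/+ cells, were both above it in N159S/N159S cells, and *Cd24a*, which *Dntt* overlapped, was above *Dntt*.

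Other genes of immature thymocytes, which are not members, were also read. Of 17 further genes of immature thymocytes 13 were tested. In N159S/N159S against +/+ cells 2 of them were lower, beside 2.1% of all tested genes. They were *Myb*, which encodes a progenitor transcription factor, and *Cd1d1*, which encodes the molecule that selects NKT cells. *Myb* was at 19.8 and 17.8, 14.8 and 14.2, and 9.72 and 8.79 CPM in +/+, +/N159S and N159S/N159S libraries (log2 fold change -1.02 ± 0.15, FDR 0.00289, edgeR). *Cd1d1* was at 45.9 and 48.5, 43.4 and 45.9, and 29.3 and 26.4 CPM (-0.76 ± 0.11, FDR 0.00308, edgeR), and was also lower than in +/N159S cells (-0.68 ± 0.11, FDR 0.0143). *Ptcra*, the pre-T cell receptor chain, had 3 reads in N159S/N159S library 1 and none in the other 5. In +/N159S against +/+ cells *Ets2* was lower (-0.59 ± 0.12, FDR 0.0335, edgeR), beside 0.586% of all tested genes. The most abundant gene of the list, *Dtx1*, which encodes a ubiquitin ligase of the Notch pathway, was at 268 and 308, 423 and 273, and 502 and 402 CPM, with a log2 fold change of 0.65 ± 0.18 in N159S/N159S against +/+ cells (FDR 0.0637, edgeR). The transcription factor genes *Lyl1* and *Hhex* had log2 fold changes of 1.74 ± 0.45 and 1.87 ± 0.50 in +/N159S against +/+ cells (FDR 0.0822 and 0.0872, edgeR), at 10 to 96 reads in a library. Both were highest in +/N159S library 2 and next in +/N159S library 1, as was the B cell sum (551 and 335 CPM). The part of B cell RNA in their values was not tested. At an unadjusted p under 0.05, 5 of the 13 genes would pass in N159S/N159S and 4 in +/N159S against +/+ cells, and DESeq2 called 2 and 3. The median of the 13 was -0.18 in N159S/N159S against +/+ cells.

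Genes of positive selection and of later maturation were read beside them. In N159S/N159S against +/+ cells 1 of 8 positive selection genes was lower, beside 2.1% of all tested genes. This was *Cd5*, whose level follows the strength of the receptor signal (399 and 433 CPM in +/+ against 243 and 216 CPM in N159S/N159S libraries, log2 fold change -0.86 ± 0.11, FDR 0.00123, edgeR). *Cd69* was lower in +/N159S than in +/+ cells (-0.54 ± 0.12, FDR 0.0461, edgeR), beside 0.586% of all tested genes. It was higher in N159S/N159S than in +/N159S cells (0.69 ± 0.12, FDR 0.0154), beside 0.553%. Of 11 genes that rise after the thymus, *Cd55* and *Ly6c1* were lower and *Klf2* was higher in N159S/N159S than in +/+ cells. Their log2 fold changes were -0.63 ± 0.10, -1.29 ± 0.17 and 0.54 ± 0.12 (FDR 0.00522, 0.00119 and 0.0208, edgeR). Of all tested genes 2.1% were lower and 3.1% higher in that comparison. In +/N159S against +/+ cells *Ly6c1* and *Il7r*, which encodes the CD127 of the sort, were lower (-1.24 ± 0.17 and -0.49 ± 0.10, FDR 0.00546 and 0.0327, edgeR), beside 0.586% of all tested genes. In N159S/N159S against +/+ cells both lists included decreases, and the list of later genes also included the increase of *Klf2*. The medians of the lists were -0.18 for the 8 and -0.20 for the 11 genes. At an unadjusted p under 0.05, 5 of the 8 and 6 of the 11 genes would pass in that comparison, and DESeq2 called 1 and 4.

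**Figure D4:**
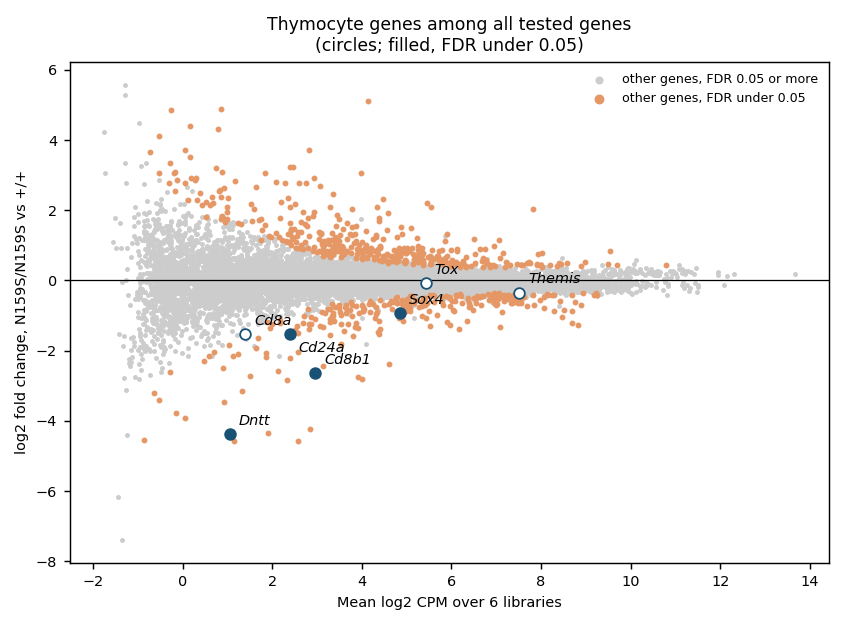
Log2 fold change of N159S/N159S against +/+ cells (vertical axis) against mean log2 CPM over the 6 libraries (horizontal axis) for the 12117 tested genes, with the 7 tested thymocyte genes as labelled circles, filled where the FDR is under 0.05. *Dntt* and *Cd8b1* sit at the lower edge of the cloud, *Cd24a* and *Sox4* below its centre, and *Tox* and *Themis* nearest to 0, at -0.07 and -0.34.

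For each of the 7 genes, the 3 genes with the most similar profile over the 6 libraries were taken, by the root mean square difference of log2 CPM after subtracting the +/+ mean, among 10412 genes whose mean log2 CPM was 1 or more. For *Dntt* they were *Nav2* (0.295), *Fcer2a* (0.467) and *Eya2* (0.684), and 0 genes lay within 0.25. *Nav2* was at 13.7 and 14.2, 2.89 and 6.5, and 0.582 and 0.806 CPM in +/+, +/N159S and N159S/N159S libraries. For *Cd8b1* they were *Xkrx* (0.218), *Tbxa2r* (0.218) and *Jaml* (0.300), and for *Cd24a* *Gng2* (0.238), *Ly6d* (0.282) and *Il2rb* (0.311). *Cd8a* was nearest to *Ankrd6* (0.310), *Ly6d* (0.350) and *Ciita* (0.382), and *Sox4* to *Apol8* (0.0842), *Stk26* (0.103) and *Cdk5r1* (0.118). *Tox* and *Themis*, whose levels varied least over the genotypes, had 6692 and 3522 genes within 0.25, led by *Ints14* and *Atad2b*. Among the members themselves, *Tox* and *Themis* were the closest pair (0.240), *Cd8a* was closer to *Cd24a* (0.511) than to *Cd8b1* (1.22), and *Dntt* was closest to *Cd8b1* (1.33). Which cells the RNA of these nearest genes came from was not tested. B cell markers had reads in all 6 libraries, at sums of 95.7 to 551 CPM.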

How the data were processed

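RNA-seq of splenic T cells was analysed in 6 libraries, 2 per genotype. B cell libraries are not used here. The authors used Trimmomatic (0.38.1) for trimming, HISAT2 (2.2.1) for alignment to mm10 and HTSeq (2.0.2) for counting on refGene, with versions as in the submitters' processing notes. They deposited raw counts per gene, which are not normalized. Reads on genes were 50.7 to 57.7% of the entries counted, and the entries that name no gene were left out. Whether counting used strand is not given in the sources used here. None of the 9 genes overlapped an exon of another gene.

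The steps in edgeR 4.0.16 (R 4.3.3) were filterByExpr (minimum count 10, minimum total 15), TMM scaling, and a quasi-likelihood fit with a coefficient per genotype over the 6 libraries. Tests were two-sided. The Benjamini-Hochberg adjustment ran over the 12117 tested genes, and an FDR under 0.05 was called. A ± after a log2 fold change is its standard error. RPKM used the exon union of GENCODE M21 transcripts that carry a RefSeq accession. Profiles were compared on log2 CPM with a prior count of 2. Intervals and floors cover counting error only. The labels give separate replicates but no animal numbers, so the p-values measure the spread between these libraries, which differed beyond sampling noise.

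The 9 genes, the pathway and marker lists and the tests were chosen with earlier results of these data known, so the counts over lists are descriptions and no list was tested as a set. A few list genes are not reported here and were left out of the counts and sums. Genes named were the 9 genes, *Ikzf3*, the called genes of each list (at most 4 per comparison), the most abundant marker of a list, and the 3 nearest profiles. *Xist*, the relatives of *Tox*, *Polm*, *Poll*, *Runx3*, *Zbtb7b*, *Ptcra*, *Lyl1*, *Hhex*, *Gzmb*, *Klrd1*, *Gzma*, *Nkg7*, *Foxp3* and *Ctla4* were named after their values were seen. Alternatives were DESeq2 1.42.0, its size factors in edgeR, no filter, edgeR's likelihood ratio test, the replicate number as a block, a fit of the 2 genotypes compared, and each library left out in turn. A block for the split of each genotype into the library with more and the one with fewer genes detected was added after the data were seen.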

Additional observations from a re-analysis of the deposited data

How the results depend on the processing

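No result changed sign past the threshold under any alternative. The number of thymocyte genes called in N159S/N159S against +/+ cells (4) was 5 with DESeq2 and without the filter, 6 with the likelihood ratio test and with the block for genes detected, and 2 to 4 with each library left out. In +/N159S against +/+ cells (1) it was 2 without the filter, 3 with the block for genes detected, and 0 to 1 with each library left out. In N159S/N159S against +/N159S cells (3) it was 4 with DESeq2 and with the likelihood ratio test, 5 without the filter and with the block for genes detected, and 0 to 3 with each library left out. For the departure from the midpoint (0) it was 1 with DESeq2, 3 without the filter, 2 with the likelihood ratio test, 3 with the block for genes detected, and 0 to 1 with each library left out. Over all genes, 631 in N159S/N159S against +/+ cells became 1047 without the filter, 1042 with the likelihood ratio test, 1760 with the block for genes detected and 257 to 734 with each library left out. The 212 in +/N159S against +/+ cells became 341 (DESeq2), 710, 640, 1385 and 83 to 251. The 180 in N159S/N159S against +/N159S cells became 553, 473, 834 and 43 to 197. The 113 departures from the midpoint became 194 (DESeq2), 399, 356, 682 and 45 to 113. Fewer samples were tested where a library was left out, and the lone library was then assumed to vary like the others. The cause of the other differences was not tested. With the replicate number as a block, 4, 1 and 2 thymocyte genes were called in the 3 comparisons, and 495, 149 and 135 genes in all. The numbers share no stated animal, and same-numbered libraries deviated together with correlations of -0.17, -0.22 and 0.24, so the pairing is not used. Depth limits *Rag1* and *Rag2*, which had at most 7 reads in a library.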

Other observations

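The nearest tested genes on either side of each thymocyte gene, a choice made after the data were seen, gave 14 genes that are not members. Of these, 1 changed in N159S/N159S against +/+ cells by edgeR's quasi-likelihood test, beside 5.21% of all tested genes. This was *C330026H20Rik*, 17597 bases before *Dntt* on chromosome 19, with 14 and 20 reads in +/+, 7 and 12 in +/N159S and 2 and 2 in N159S/N159S libraries (log2 fold change -3.22, FDR 0.0271, edgeR). On the other side of *Dntt*, *Tm9sf3* lay 151317 bases away with a log2 fold change of 0.06. Beside the CD8 genes, *Rmnd5a*, 9463 bases from *Cd8a*, and *Krcc1*, 35963 bases from *Cd8b1*, had log2 fold changes of -0.11 and -0.16 (edgeR FDR 0.706 and 0.516). The other 13 genes ranged from -0.91 to 0.07.

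Marker genes of further cell types were read in the same libraries. Regulatory T cell markers (5 genes) summed to 86.1 and 90.6 CPM in +/+, 149 and 126 CPM in +/N159S and 94.3 and 86.5 CPM in N159S/N159S libraries. *Tnfrsf18* was the most abundant. In N159S/N159S against +/+ cells *Il2ra* was lower (log2 fold change -0.89 ± 0.23, FDR 0.0460, edgeR), beside 2.1% of all tested genes. The other 4 did not pass, at -0.12 for *Foxp3*, -0.18 for *Ctla4*, 0.20 for *Ikzf2* and 0.29 for *Tnfrsf18*. *Foxp3* was at 6.87 and 11.2 CPM in +/+, 30.2 and 16.7 CPM in +/N159S and 10.9 and 5.71 CPM in N159S/N159S libraries. *Il2ra* was also lower in N159S/N159S than in +/N159S cells (-1.51 ± 0.22, FDR 0.00697, edgeR), beside 0.933% of all tested genes. *Ikzf2*, which encodes Helios, was higher in +/N159S than in +/+ cells (0.83 ± 0.15, FDR 0.0232, edgeR), beside 1.16%. Myeloid markers (7 genes) summed to 15 to 40.4 CPM, highest in N159S/N159S library 2. Of these, *S100a9* was higher in N159S/N159S than in +/N159S cells (2.14 ± 0.44, FDR 0.0380, edgeR), beside 0.553% of all tested genes. Dendritic cell markers (7 genes) summed to 1.28 to 3.28 CPM, markers of immature B cells (3 genes) to 0.942 to 4.51 CPM, and erythroid markers (5 genes) to 0.687 to 6.49 CPM, with *Hba-a1*, *Hbb-bs* and *Hbb-bt* at 0 reads in all 6 libraries.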
